A study of Saccharomyces cerevisiae with 12 samples.

Results

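RNA-seq was used to ask how loss of the RNA-binding protein Mrn1 changed mRNA levels in budding yeast shortly after the cells had been moved to non-fermentable carbon sources. The comparison comprised 6 of the 12 libraries of the series, 3 from mrn1Δ and 3 from wild-type cells, and took in every coding sequence that could be tested. Both strains were BY4741, a haploid MATa laboratory strain that lacks working HIS3, LEU2, MET17 (MET15) and URA3 genes, so controls and mutants shared these auxotrophies. The mrn1Δ strain carried a kanamycin selection cassette integrated at the MRN1 locus, and how many independent clones it represents was not stated. Cells grew in YEPD (rich medium with 2% glucose) to an OD600 of 0.6 and were then kept for 20 minutes in YEPEG (rich medium with 2% ethanol and 2% glycerol), the condition called respiratory. The other 6 libraries, 3 of each genotype, came from the same strains harvested in glucose (fermentative), and are used here only to ask whether a difference seen after the shift was unlike that in glucose. Each group consisted of triplicate cultures, and nothing in the labels says how far apart these were grown, so p-values measure the spread between these cultures. Of 5917 coding sequences in the files, 5800 were tested, of which 394 were higher and 454 lower in mrn1Δ.

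Mrn1 binds mRNA through RNA-recognition motifs, and its bound transcripts include many that encode cell wall proteins. Removal of glucose is known to release yeast cells from glucose repression: genes for uptake and oxidation of lactate, acetate, ethanol, glycerol and fatty acids come on, while transcription of genes for ribosome assembly falls within minutes. Promoters of ribosome assembly genes often carry a pair of elements called PAC and RRPE, promoters of many stress and starvation genes carry the stress response element (STRE), and promoters of several leucine synthesis genes carry the palindrome bound by the zinc-cluster factor Leu3, which activates when the leucine precursor α-isopropylmalate is present. The enzyme that consumes α-isopropylmalate in this pathway is Leu1, and the next one, Leu2, is missing from BY4741.

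Sequences around motif matches in some of the genes that were higher or lower are shown first. Whether these motifs act on the genes was not tested. The sequences are 30-base stretches of the R64 reference genome of RefSeq, written 5′ to 3′ on the strand of the gene. They were taken from windows running from 250 bases before to 50 bases after each start codon. The first set holds the windows with a match to the Leu3 palindrome (CCGG, any 2 bases, then CCGG again) in genes that were lower in mrn1Δ, with the palindrome in capitals.
LEU1, chrVII:478850-478879, minus strand: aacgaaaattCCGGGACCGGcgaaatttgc
BAT1, chrVIII:517375-517404, plus strand: attgtgtttgCCGGTACCGGcctttaagct
FSF1, chrXV:832176-832205, minus strand: gtactggcgtCCGGTACCGGagcgtaccag
DRE2, chrXI:576128-576157, minus strand: ttgacatatcCCGGTACCGGaataagtccg
The next set comes from 3 ribosome assembly genes that were lower, with 1 match to the PAC element (GATGAG, or its reverse complement CTCATC) in capitals and further or overlapping matches left in lower case.
EBP2, chrXI:125667-125696, plus strand: aaatacagatgaGATGAGctttatagaatt
RLP24, chrXII:166329-166358, plus strand: aactcatctcatCTCATCccaccctatctc
KRI1, chrXIV:55961-55990, minus strand: tatcaatctcatCTCATCtagttaacagaa
The last set comes from 3 genes that were higher, with 1 match to the STRE (CCCCT, or its reverse complement AGGGG) in capitals. NQM1 holds a further match in lower case. JEN1, NCA3, INA1 and ERG5, which were also higher, held no match in their windows.
STL1, chrIV:1507818-1507847, plus strand: cttcaattttgtCCCCTtcaacgctgcttg
CYB2, chrXIII:167512-167541, minus strand: atatctccttgcCCCCTcctcctgttcgag
NQM1, chrVII:581584-581613, minus strand: taggggcgaatgAGGGGagcatagtggatc

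The targeted gene was checked next. Levels are given as CPM, the estimated counts per 1000000 counts of the library after TMM scaling of all 12 libraries. MRN1 (YPL184C, chromosome XVI, 195950 to 197788, minus strand) stood at 83.7, 87.2 and 85.5 CPM in the wild-type cultures and at 0.0987, 0.302 and 0.458 CPM in mrn1Δ, the last from 2, 8 and 10 counts. Every mrn1Δ library therefore matched its label, with a log2 fold change of -8.17 ± 0.16 (SE). UIP4, the neighbour downstream of MRN1 on the same strand, was at 46.7, 37.8 and 39.5 CPM in wild-type and 63.1, 56.8 and 65.9 CPM in mrn1Δ (log2 fold change 0.58 ± 0.09, adjusted p = 0.00282, edgeR quasi-likelihood test), while RTC6, the neighbour on the other side, differed by 0.21 ± 0.13 and did not pass. In glucose UIP4 was at 4.54 ± 0.38 CPM in wild-type and 3.03 ± 0.42 CPM in mrn1Δ (SD, n = 3), the opposite order, and the genotype differences in the 2 conditions differed by 1.16 (adjusted p = 0.00321, edgeR interaction test).

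Total estimated counts ran from 18964858 to 25274670 over the 6 libraries, so that 3 counts corresponded to 0.119 to 0.158 CPM. Log levels correlated across genes at 0.986 to 0.991 among the wild-type libraries, 0.994 to 0.995 among the mrn1Δ libraries and 0.984 to 0.989 between genotypes, so the wild-type cultures were the more scattered. The first principal component (40.9% of the variance) separated the genotypes and the second (26.4%) separated wild-type replicates 1 and 2. The MATa markers STE2 (78.2 to 97.0 CPM), STE6 (170.3 to 221.9 CPM) and BAR1 (60.4 to 69.5 CPM) were present in all 6 libraries. MFA2 (6.29 to 9.57 CPM) and MFA1 (0.756 to 1.51 CPM), which have very short coding sequences, were low. Among genes of the other mating type, MF(ALPHA)1 (0.223 to 1.25 CPM), MF(ALPHA)2 (3.48 to 5.29 CPM) and STE3 (2.52 to 4.68 CPM) were low, whereas SAG1 was not near zero at 28.6 to 34.4 CPM in every library of both genotypes. The deleted markers gave 0 to 3 counts for LEU2, 1 to 9 for URA3 and 4 to 12 for MET17, and HIS3, whose allele is a partial deletion, gave 16.8 to 21.8 CPM.

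In mrn1Δ after the shift, 394 genes were higher (6.79% of the 5800 tested) and 454 were lower (7.83%) (edgeR quasi-likelihood test, Benjamini-Hochberg adjusted p under 0.05). These shares are the background for every count of list members given below. The changes were mostly small. The median log2 fold change was 0.31 among the higher and -0.36 among the lower genes, against 0.00 over all tested genes, whose quartiles were -0.12 and 0.11. A change of at least 2-fold was found for 5 higher genes (STL1, JEN1, NCA3, INA1 and YBR219C, the last at or below 1.02 CPM in every library and sharing reads with other sequences) and for 11 lower ones (MRN1, LEU1, OAC1, BAT1, DIC1, ALD5, MAE1, YKR075C, GDH1, FSF1 and TIR1). The 3 mrn1Δ libraries lay wholly above or wholly below the 3 wild-type libraries for 2013 genes (34.7%), and for 847 of the 848 called genes, the exception being YPR127W. Under upper-quartile scaling, which shifted the median of all genes by -0.03, the split was 260 higher and 577 lower, so that higher genes made up 31.1% of the called genes rather than 46.5%. The counts also varied with the libraries included. They were 321 higher and 323 lower without wild-type replicate 1, 445 and 473 without wild-type replicate 2, 227 higher and 274 lower without wild-type replicate 3, and 152 and 186, 167 and 165, and 207 and 241 without mrn1Δ replicates 1, 2 and 3. For the genes below, a call held in all 6 fits that each left out 1 library unless the libraries that ended it are named.

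**Figure D1:**
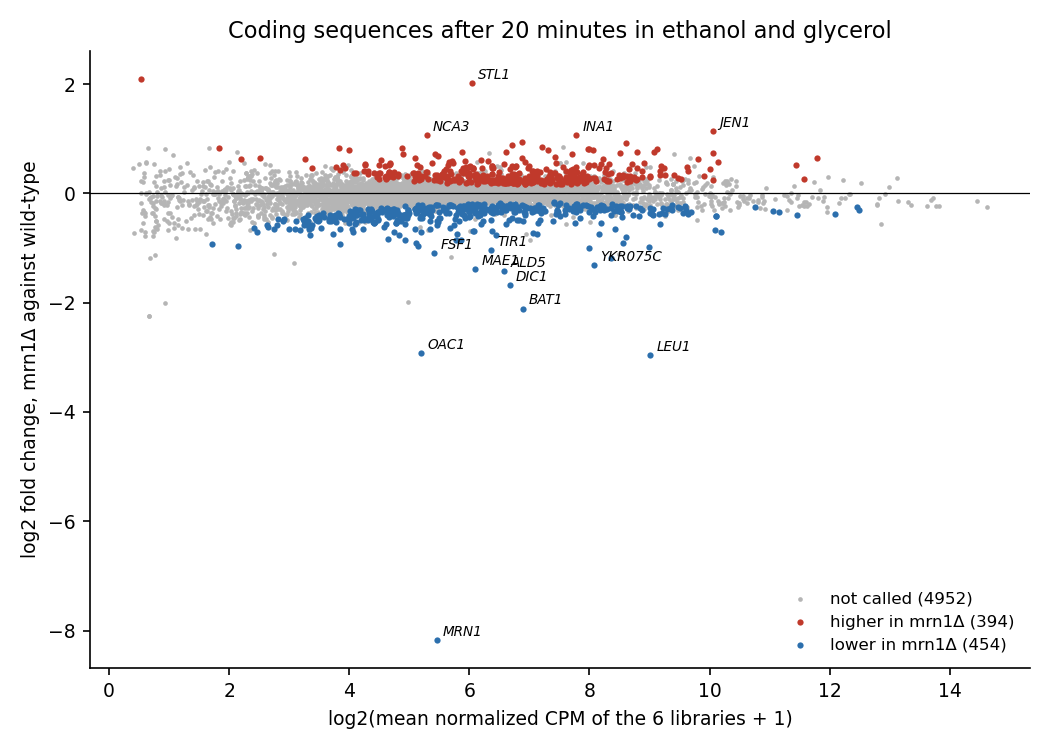
Log2 fold change of each tested coding sequence (vertical axis, mrn1Δ against wild-type) against the log2 of its mean normalized CPM plus 1 over the 6 respiratory libraries (horizontal axis). Red points are the 394 higher and blue points the 454 lower genes; most lie within 1 log2 unit of zero, and MRN1, LEU1, OAC1 and BAT1 stand apart at the bottom and STL1 at the top.

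Genes of branched-chain amino acid synthesis gave the largest changes after MRN1 itself. Of 11 listed genes, 9 were lower and none higher, with a median log2 fold change of -0.86, and their summed level was 3625, 4165 and 3806 CPM in wild-type against 1929, 1985 and 2008 CPM in mrn1Δ. The count of lower genes was 8 or 9 whichever library was left out. OAC1, a carrier rather than a synthesis enzyme, is counted both here and among the mitochondrial carriers below.

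LEU1 (YGL009C, chromosome VII, 476313 to 478652), the isopropylmalate isomerase of leucine synthesis, fell from 824, 999 and 918 CPM in wild-type to 111, 121 and 121 CPM in mrn1Δ. The lowest wild-type culture was still well above every mrn1Δ culture, and the change was 7.76-fold (log2 fold change -2.96 ± 0.09, adjusted p = 8.4e-09, edgeR). OAC1 (YKL120W, chromosome XI, 217344 to 218318) encodes an inner-membrane mitochondrial carrier that moves oxaloacetate and sulfate and is known to export α-isopropylmalate. It stood at 60.5, 61.9 and 67.0 CPM in wild-type and at 8.83, 8.39 and 7.83 CPM in mrn1Δ, a 7.56-fold difference (-2.92 ± 0.08, adjusted p = 5.0e-09, edgeR), with little spread in either group. BAT1 (YHR208W, chromosome VIII, 517532 to 518713), the mitochondrial branched-chain aminotransferase, was at 181, 190 and 202 CPM against 41.1, 44.1 and 47.6 CPM, a 4.31-fold difference (-2.11 ± 0.07, adjusted p = 1.7e-08, edgeR). The cytosolic aminotransferase BAT2 behaved otherwise, at a log2 fold change of 0.15, and was not called.

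The remaining pathway members changed less. ILV5, the acetohydroxyacid reductoisomerase, was at 276, 425 and 310 CPM in wild-type and 156, 172 and 178 CPM in mrn1Δ (-1.0 ± 0.16, adjusted p = 0.0126), and lost its call without mrn1Δ replicate 2 (adjusted p = 0.0617). ILV3, the dihydroxyacid dehydratase, was at 657, 730 and 641 against 331, 343 and 346 CPM (-0.99 ± 0.07). ILV2, the catalytic subunit of acetolactate synthase, was at 484, 494 and 497 against 275, 288 and 288 CPM (-0.79 ± 0.06). In each of these the lowest wild-type library lay above the highest mrn1Δ library. The isopropylmalate synthases LEU9 (-0.86 ± 0.07) and LEU4 (-0.64 ± 0.10), both of which share reads with similar sequences, were lower. The threonine deaminase ILV1 was lower by a smaller amount (-0.34 ± 0.07), with its call lost without mrn1Δ replicate 1 (adjusted p = 0.0576), and the regulatory subunit ILV6 (-0.20) was not called. LEU3, the activator itself, was at 39.6, 46.0 and 44.5 CPM in wild-type and 39.0, 41.4 and 40.2 CPM in mrn1Δ, groups that overlapped (-0.11 ± 0.07, adjusted p = 0.354). ILV2, ILV3, LEU4, LEU3 and the others that the naming rule did not select were chosen after their values were seen.

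The Leu3 palindrome was searched on both strands of 5891 promoter windows and was found in 8 of them (0.136%). Of the 7 such genes that were tested, 4 were lower (LEU1, BAT1, FSF1 and DRE2, the last at -0.29 with adjusted p = 0.0338), 3 were not called (BRO1, GAT1 and NPA3) and none was higher. All 7 had negative log2 fold changes, with a median of -0.32. The match of NPA3 lay after the gene start, within the coding sequence. OAC1, ILV2, ILV3 and ILV5 had no exact match to these letters in the window, which says nothing about binding there. Of all windows, 1534 overlapped that of a neighbouring gene.

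**Figure D2:**
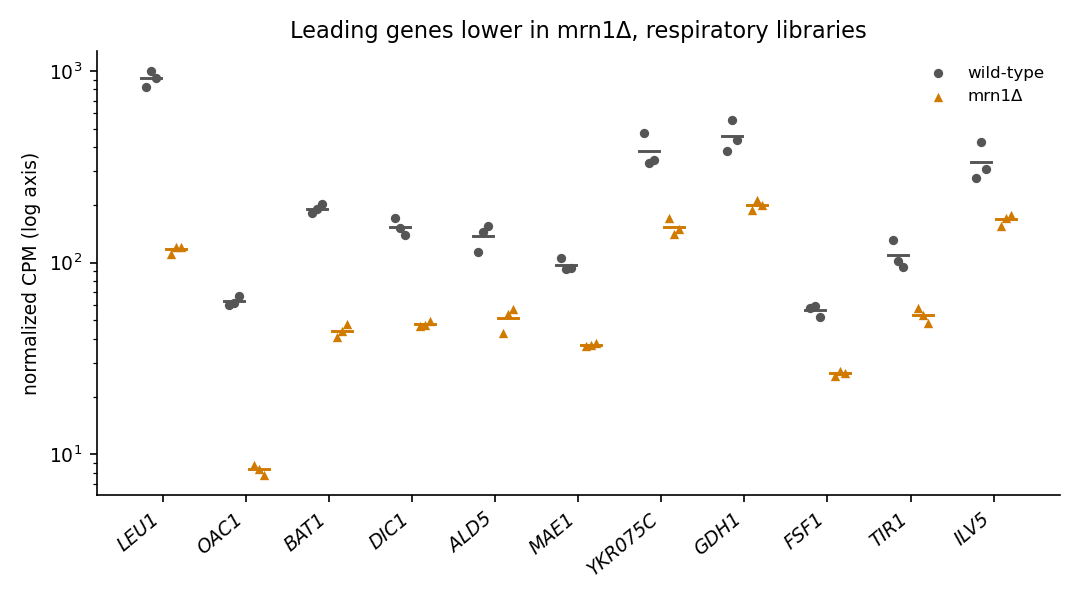
Normalized CPM (log axis) of the leading lower genes in each of the 3 wild-type (circles) and 3 mrn1Δ (triangles) respiratory libraries, with short lines at the group means. In all 11 genes every triangle lies below every circle, which the choice of genes with non-overlapping groups required. The genes run from LEU1 and OAC1 at left, with the widest gap, to ILV5 at right.

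The other leading lower genes mostly encode enzymes and carriers, several of them mitochondrial. DIC1, the mitochondrial dicarboxylate carrier, was at 171, 152 and 139 CPM in wild-type and 46.6, 47.5 and 49.8 CPM in mrn1Δ, a 3.21-fold difference (-1.68 ± 0.08, adjusted p = 3.9e-07, edgeR). MAE1, the mitochondrial malic enzyme that makes pyruvate from malate, was at 105, 93.0 and 94.2 against 36.7, 37.4 and 38 CPM (-1.38 ± 0.06, adjusted p = 3.9e-07, edgeR). The mrn1Δ cultures were tightly grouped for both. FSF1, a protein of the mitochondrial sideroflexin family, was at 58.0, 59.3 and 52.3 against 25.7, 27.1 and 26.7 CPM (-1.09 ± 0.07). ALD5, the mitochondrial aldehyde dehydrogenase, was at 113, 144 and 156 against 43.2, 53.9 and 57.5 CPM (-1.42 ± 0.15, adjusted p = 0.00352). GDH1, the NADP-dependent glutamate dehydrogenase that assimilates ammonium, was at 381, 553 and 437 against 188, 212 and 200 CPM (-1.19 ± 0.13), and shares reads with a similar sequence. Each of these was lower in every mrn1Δ library than in any wild-type library, which the choice of leading genes required.

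The fall of the carriers did not extend over most of the listed carriers. Of these 19 tested mitochondrial carriers 3 were lower and 1 higher, with a median of 0.01. Over all tested genes 7.83% were lower and 6.79% higher. Besides OAC1 and DIC1, the lower one was the hypoxic ADP/ATP carrier AAC3, at a few CPM (4.86, 6.60 and 5.39 against 2.62, 4.31 and 3.25), whose call (-0.71 ± 0.21, adjusted p = 0.0452) was lost without wild-type replicate 2 or 3 or mrn1Δ replicate 1 or 3 (up to 0.153). The higher one was PIC2, a mitochondrial phosphate and copper carrier (129, 123 and 123 against 165, 162 and 163 CPM, 0.39 ± 0.05). Without a library the number of listed carriers called higher ran up to 4 (without wild-type replicate 2). TPC1, a mitochondrial carrier outside the list, was also lower and is given under the other observations.

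Genes that end the methionine pathway were lower while those of sulfate assimilation were not called. MET6, the methionine synthase, was at 526, 475 and 469 CPM in wild-type and 273, 258 and 250 CPM in mrn1Δ (-0.91 ± 0.07, adjusted p = 2.5e-05, edgeR). The S-adenosylmethionine synthetases SAM2 (122, 113 and 109 against 77.1, 81.2 and 75 CPM, -0.56 ± 0.06) and SAM1 (337, 386 and 311 against 233, 238 and 238 CPM, -0.54 ± 0.08), both sharing reads, were lower. These were the only called genes among the 19 tested of the sulfate and methionine list, whose median was -0.05, and the count was 3 in every fit that left out a library. Among 37 other amino acid synthesis genes 4 were lower and 1 higher (median -0.09), where 7.83% of all tested genes were lower and 6.79% higher. HOM2 (-0.36 ± 0.08), THR1 of the threonine branch (-0.34 ± 0.06) and SER2 (-0.31 ± 0.08) were lower, and SER3 (0.17 ± 0.05), which shares reads, was higher. THR1 kept its call throughout. HOM2 lost it without wild-type replicate 3 or any 1 mrn1Δ library (adjusted p up to 0.0798), SER2 without wild-type replicate 1 or 3 or any 1 mrn1Δ library (up to 0.0822), and SER3 without any 1 library (up to 0.189). The number lower in that list was 6 without wild-type replicate 1 or 2 and 1 without any other library.

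Genes for ribosome assembly made up the largest number of lower genes in any of the lists. Of 92 listed genes 63 were lower and none higher, 91 had a negative log2 fold change, and the median was -0.37. Their summed level was 4475, 3898 and 4058 CPM in wild-type and 3288, 3199 and 3309 CPM in mrn1Δ. The count lower was 40 without wild-type replicate 3, and 35, 23 and 41 without mrn1Δ replicates 1, 2 and 3. EBP2, needed for processing of the large-subunit rRNA, was at 34.5, 28.8 and 28.8 against 14.9, 15.8 and 20.6 CPM (-0.84 ± 0.13, adjusted p = 0.0035, edgeR), and shares some reads with other sequences. RLP24, a protein of the pre-60S particle, was at 16.7, 15.3 and 14 against 8.68, 8.96 and 9.98 CPM (-0.74 ± 0.11). KRI1, required for assembly of the small subunit, was at 33.2, 35.3 and 28.1 against 18.8, 19.5 and 20.7 CPM (-0.71 ± 0.09). None of these overlapped between genotypes.

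The other parts of the translation machinery leaned the same way by smaller amounts. Of 20 subunits of RNA polymerases I and III, which transcribe rRNA, 5S rRNA and tRNA, 9 were lower and none higher (median -0.28), and all 20 had negative log2 fold changes. RPA49 (30.5, 27.1 and 25.5 against 19.4, 15.5 and 19.6 CPM, -0.61 ± 0.10) and RPA43 (22.7, 20.1 and 20.0 against 15.5, 14.3 and 15 CPM, -0.49 ± 0.09) are polymerase I subunits. The polymerase III subunit RPC31 (-0.51 ± 0.12) lost its call without any 1 mrn1Δ library (adjusted p up to 0.0582). The number lower was 5 without wild-type replicate 1 or 3 and 3, 3 and 5 without mrn1Δ replicates 1, 2 and 3. Of 32 translation factors 12 were lower and 1 higher (median -0.18). YEF3, the fungal elongation factor, was lower (-0.38 ± 0.07, lost without mrn1Δ replicate 1 at 0.0546, sharing reads), as was EFB1 (-0.38 ± 0.08, lost without mrn1Δ replicate 1 or 2, up to 0.0769) and TIF35 (-0.35 ± 0.08, lost without wild-type replicate 3 or any 1 mrn1Δ library, up to 0.0824). SUP35, the release factor, was higher (0.23 ± 0.06, lost without any library other than wild-type replicate 1, up to 0.12). The number of translation factors lower was 4 when all 12 libraries entered the fit, 5 without wild-type replicate 1 or 3, and 0, 1 and 4 without mrn1Δ replicates 1, 2 and 3.

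Of 137 cytosolic ribosomal protein genes 26 were lower and none higher, 127 had a negative log2 fold change, and the median was -0.18. They took 6.80% to 6.99% of the counts in wild-type and 5.74% to 6.61% in mrn1Δ, without overlap. RPS0B (616, 659 and 552 against 448, 453 and 480 CPM, -0.40 ± 0.08), RPS0A (504, 499 and 437 against 353, 350 and 391 CPM, -0.40 ± 0.08) and RPS6B (-0.38 ± 0.11) had the lowest log2 fold changes among those called. Each shares reads with similar sequences, and so do 109 of the 137 genes in all. RPS0B lost its call without mrn1Δ replicate 1 (0.0553), RPS0A without mrn1Δ replicate 1 or 2 (up to 0.059), and RPS6B without wild-type replicate 1 or 2 or any 1 mrn1Δ library (up to 0.17). The number lower was 42 by DESeq2, and fell to 17 without wild-type replicate 1 or 3, and to 5 without mrn1Δ replicate 1 or mrn1Δ replicate 2.

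The windows of lower and higher genes also differed in their share of PAC and RRPE elements, searched on both strands as GATGAG and AAAAATTT. PAC was in 44.7% of the windows of lower genes, 13.0% of those of higher genes and 20.4% of those of all tested genes. RRPE was in 39.0%, 8.91% and 14.4%. Both elements together were in 28.9% of lower, 1.02% of higher and 5.80% of all tested windows, and in 81.5% of the 92 ribosome assembly windows. EBP2, RLP24 and KRI1, printed above, held 3, 4 and 2 matches to PAC. The STRE showed the opposite order, at 40.5% of higher, 14.5% of lower and 21.5% of all tested windows. It was in 8 of the 12 leading higher genes (STL1, CYB2, ALD3, NQM1, ATP15, CLB2, PUT4 and HXT5) and in none of the 12 leading lower genes. The only match of HXT5 lay after the gene start, within the coding sequence. The other motifs searched gave, in the order higher, lower and all tested, 49.1%, 36.6% and 43.5% for the Hap complex (CCAAT), 10.4%, 9.47% and 8.12% for Gcn4 (TGACTC), 2.29%, 2.20% and 2.94% for Cbf1 (CACGTG) and 1.53%, 2.42% and 3.13% for the MCB (ACGCGT). By list, the Hap letters were in 93.3% of ATP synthase and 76.2% of electron transport windows, and in 59.4% of proteasome windows, a list without calls. The Gcn4 letters were in 54.5% of branched-chain, 65% of purine and 59.5% of other amino acid synthesis windows, the last a list with few calls. These shares describe letters in the windows and were not tested.

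**Figure D3:**
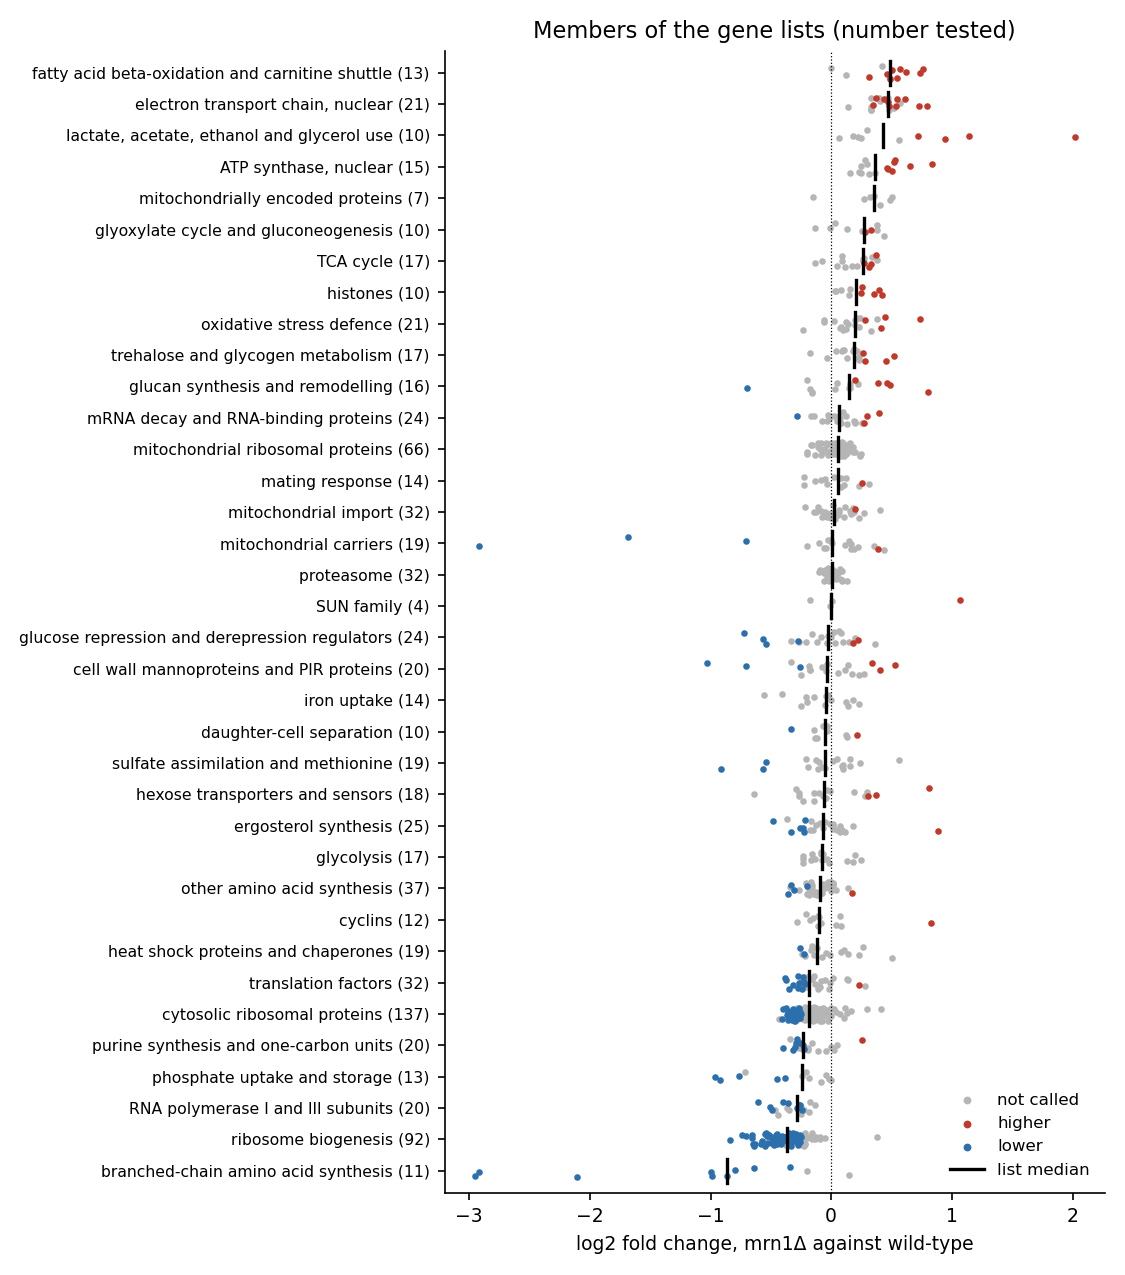
Log2 fold change (horizontal axis) of each tested member of 36 gene lists, ordered by list median (black bars), with the number tested in parentheses. Red and blue points are members called higher and lower; called members of fatty acid β-oxidation and electron transport at the top are all red, and those of branched-chain amino acid synthesis and ribosome biogenesis at the bottom all blue.

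Among regulators of glucose repression, repressor genes were among the lower ones. MIG2 (209, 134 and 150 against 102, 94.7 and 101 CPM, -0.73 ± 0.17, adjusted p = 0.0445, edgeR) and MIG3 (33.1, 25.5 and 25.7 against 21.5, 19.6 and 16 CPM, -0.56 ± 0.13) encode zinc-finger repressors of glucose-repressed genes. MIG2 lost its call without wild-type replicate 3 or any 1 mrn1Δ library (up to 0.138) and MIG3 without mrn1Δ replicate 2 or 3 (up to 0.0758). STD1, which acts in the glucose sensing pathway, was at 34.9, 28.3 and 31.3 against 23.1, 21.4 and 20.6 CPM (-0.54 ± 0.09). CAT8, the activator of gluconeogenic genes, was at 356, 381 and 397 against 448, 453 and 423 CPM (0.22 ± 0.07, adjusted p = 0.048), and the Snf1 kinase subunit SIP1 was also higher (0.18 ± 0.05). The call for CAT8 was lost without any 1 library (up to 0.164), and that for SIP1 without any library other than wild-type replicate 3 (up to 0.145). In all, 4 of these 24 regulators were lower and 2 higher, and the median was -0.02. Over all tested genes 7.83% were lower and 6.79% higher. The number lower was 2, 1 and 1 without mrn1Δ replicates 1, 2 and 3, and the number higher 1 without wild-type replicate 1 or 3 and 0 without any other library. YKR075C, a relative of the Reg1 phosphatase subunit, was not in that list and was at 475, 330 and 342 against 170, 141 and 150 CPM (-1.31 ± 0.15).

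The phosphate list had 5 lower and no higher genes of 13, all 13 log2 fold changes were negative, and the median was -0.24. PHO84, the high-affinity phosphate transporter, was at 120, 94.8 and 110 against 65.0, 64.6 and 61.2 CPM (-0.77 ± 0.08, adjusted p = 0.00028, edgeR). The acid phosphatases PHO12 (-0.96 ± 0.18) and PHO11 (-0.92 ± 0.19) are near-identical and their reads cannot be told apart. PHO12 lost its call without any 1 mrn1Δ library (up to 0.0756) and PHO11 without mrn1Δ replicate 3 (0.0635). The count was 8 without wild-type replicate 2, 3 without mrn1Δ replicate 2 and 2 without mrn1Δ replicate 3.

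Cell wall genes moved in both directions. TIR1, a mannoprotein of the cold- and anaerobiosis-induced family, was at 131, 102 and 95.1 against 58.3, 53.4 and 48.3 CPM (-1.03 ± 0.13, sharing reads). HSP150, a secreted PIR protein, fell from 1442, 1577 and 1307 to 816, 919 and 922 CPM (-0.70 ± 0.09, sharing reads), and its relative CIS3 was also lower (-0.26 ± 0.07, lost without wild-type replicate 1 or any 1 mrn1Δ library, up to 0.142). UTR2, a chitin-glucan crosslinking enzyme, was at 83.2, 83.2 and 81.5 against 50.8, 51.7 and 50.5 CPM (-0.69 ± 0.05, adjusted p = 2.4e-05). GSC2, the catalytic glucan synthase subunit used in starved and stressed cells, rose from 438, 363 and 411 to 703, 733 and 680 CPM (0.80 ± 0.08, adjusted p = 0.00019, sharing reads). The glucanases EXG1 (45.4, 54.0 and 51.6 against 64.5, 70.3 and 76.3 CPM, 0.48 ± 0.08) and BGL2 (490, 576 and 465 against 686, 738 and 681 CPM, 0.46 ± 0.09) were higher too. Of 16 glucan genes 5 were higher and 1 lower (median 0.15), and of 20 mannoprotein and PIR genes 3 were higher and 3 lower (median -0.04). Over all tested genes 6.79% were higher and 7.83% lower. ECM33 (0.40 ± 0.08), CWP1 (0.53 ± 0.11) and CWP2 (0.34 ± 0.10) were the higher mannoproteins. CWP1 lost its call without wild-type replicate 3 or mrn1Δ replicate 2 or 3 (up to 0.0688), and CWP2 without any library other than wild-type replicate 2 (up to 0.149). The number of mannoproteins higher was 5 without wild-type replicate 2 and 1 without wild-type replicate 3 or mrn1Δ replicate 2 or 3.

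Sterol and purine synthesis gave smaller counts. Of 25 ergosterol genes 6 were lower and 1 higher (median -0.07). ERG25 (138, 115 and 132 against 90.7, 89.8 and 94.5 CPM, -0.49 ± 0.07), the C-4 methyl sterol oxidase, ERG3 (-0.33 ± 0.06) and ERG2 (-0.26 ± 0.05, lost without mrn1Δ replicate 2 at 0.0597) were lower. ERG5, the C-22 sterol desaturase, stood apart from them at 67.8, 72.3 and 79.3 against 134, 138 and 133 CPM, almost double (0.89 ± 0.06, adjusted p = 2.1e-05, edgeR). The number lower was 3 without wild-type replicate 1, mrn1Δ replicate 1 or mrn1Δ replicate 3, and 2 without mrn1Δ replicate 2. Of 20 purine and one-carbon genes 8 were lower and 1 higher (median -0.23). GCV2 (-0.40 ± 0.07), a glycine cleavage subunit, IMD4 (-0.30 ± 0.06, sharing reads) and ADE4 (-0.31 ± 0.07, lost without wild-type replicate 3 or mrn1Δ replicate 1 or 3, up to 0.0842) were lower, and SHM2 was higher (0.26 ± 0.07, lost without any library other than wild-type replicate 2, up to 0.16). The number lower was 3 without any 1 mrn1Δ library.

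The higher genes were led by transporters and enzymes for the use of non-fermentable carbon. Of 10 listed genes for the use of lactate, acetate, ethanol and glycerol 4 were higher and none lower, all 10 log2 fold changes were positive, and the median was 0.43. STL1 (YDR536W, chromosome IV, 1508005 to 1509714), the glycerol proton symporter, rose from 18.8, 31.8 and 26.9 CPM in wild-type to 94.9, 106 and 112 CPM in mrn1Δ. Every mrn1Δ library was far above the highest wild-type library, and the difference was 4.05-fold (2.02 ± 0.19, adjusted p = 0.00304, edgeR). JEN1 (YKL217W, chromosome XI, 22234 to 24084), the lactate and pyruvate permease, was at 567, 756 and 663 against 1514, 1544 and 1328 CPM, a 2.21-fold difference (1.14 ± 0.11, adjusted p = 0.00014, edgeR). CYB2, the L-lactate cytochrome c oxidoreductase that works on what Jen1 imports, was at 81.9, 90.2 and 68.7 against 157, 156 and 149 CPM (0.94 ± 0.09, adjusted p = 0.0002, edgeR). The acetate transporter ADY2 was at 136, 180 and 157 against 260, 282 and 237 CPM (0.72 ± 0.11). ADH2, the ethanol-oxidizing alcohol dehydrogenase, was at 154, 246 and 175 against 298, 295 and 255 CPM, a difference of 0.56 ± 0.18 that was not called (adjusted p = 0.106). The list had 9 called genes without wild-type replicate 2 and 4 without any other library. STL1, JEN1, CYB2, HXT5 and NCA3 are also the genes that the study named for this comparison; since these were picked on the same libraries, that all 5 were higher here is not independent evidence.

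**Figure D4:**
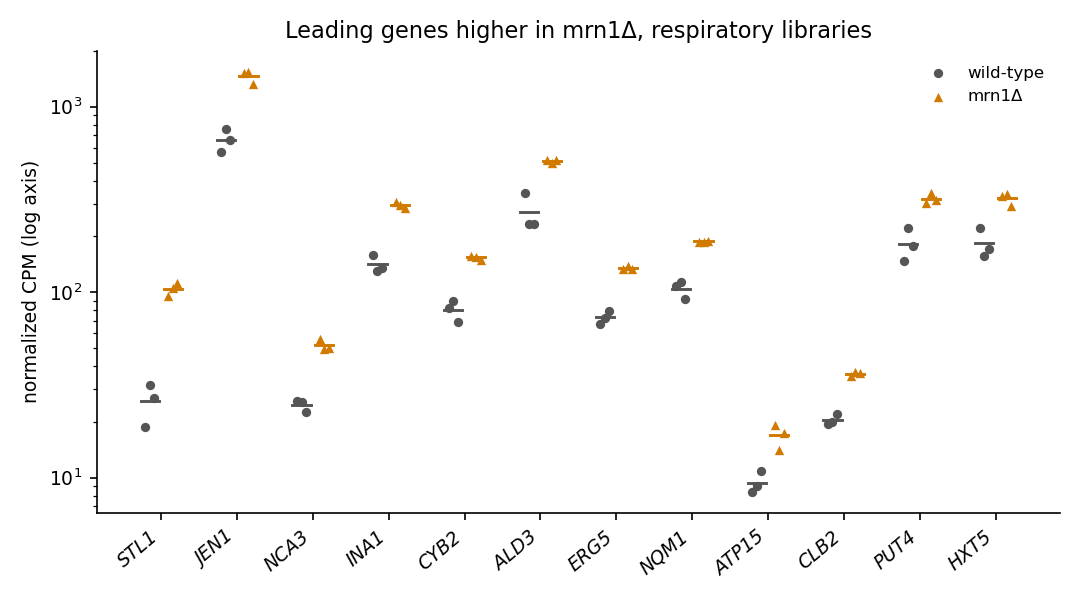
Normalized CPM (log axis) of the 12 leading higher genes in each wild-type (circles) and mrn1Δ (triangles) respiratory library, with short lines at the group means. Every triangle lies above every circle of its gene, which the choice of genes with non-overlapping groups required. The widest gap is that of STL1.

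Genes of peroxisomal fatty acid oxidation were mostly higher. Of 13 genes of β-oxidation and the carnitine shuttle 9 were higher and none lower, with a median of 0.49, and their summed level was 2682, 3306 and 3026 CPM in wild-type against 4808, 4641 and 4358 CPM in mrn1Δ. The count was 8 to 11 in the fits that left out a library. POX1, the acyl-CoA oxidase of the entry step, was at 625, 776 and 720 against 1172, 1093 and 999 CPM (0.62 ± 0.09, adjusted p = 0.0028, edgeR). FOX2, the multifunctional enzyme of the next steps, was at 726, 856 and 813 against 1384, 1354 and 1261 CPM (0.74 ± 0.08), and POT1, the thiolase of the last step, at 271, 403 and 310 against 561, 563 and 543 CPM (0.76 ± 0.13). Within each gene the genotypes did not overlap. CTA1, the peroxisomal catalase, which removes the hydrogen peroxide made by Pox1, was at 238, 298 and 280 against 449, 474 and 438 CPM (0.74 ± 0.09, adjusted p = 0.00056, edgeR). The carnitine carrier CRC1 was at a log2 fold change of 0.00 and the carnitine acetyltransferase YAT1 at 0.12, and neither was called. Only 7.69% of the windows in this list held a STRE, against 60.0% in the lactate, acetate, ethanol and glycerol list.

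Part of the subunits of the respiratory chain and of ATP synthase were higher, each by less than 2-fold. Of 21 nuclear electron transport genes 10 were higher and none lower (median 0.47), and of 15 nuclear ATP synthase genes 7 were higher and none lower (median 0.36). Every one of the 36 log2 fold changes was positive. COX7, a cytochrome oxidase subunit, was at 8.61, 11.2 and 13.1 against 19.6, 17.4 and 19.9 CPM (0.79 ± 0.14, adjusted p = 0.00558, edgeR). QCR10 of the cytochrome bc1 complex was at 16.2, 24.8 and 24.0 against 38.1, 33.2 and 36.4 CPM (0.73 ± 0.15, lost without any 1 mrn1Δ library, up to 0.066), and COX12 was at 15.4, 19.3 and 17.7 against 27.3, 21.8 and 30.9 CPM (0.61 ± 0.13, lost without wild-type replicate 3 or mrn1Δ replicate 1 or 3, up to 0.0733). ATP15, the epsilon subunit, was at 8.39, 9.05 and 10.8 against 19.2, 14.1 and 17.4 CPM (0.84 ± 0.14, adjusted p = 0.00393, edgeR). ATP19 (0.65 ± 0.17, at 3.30 to 6.23 CPM) and ATP20 (0.53 ± 0.13) were also higher, but both calls were lost without wild-type replicate 1 or 2 or mrn1Δ replicate 1 or 3 (up to 0.122 and 0.118).

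The respiratory counts depended strongly on single libraries. The number of electron transport genes higher was 6 without wild-type replicate 3 and 3, 5 and 3 without mrn1Δ replicates 1, 2 and 3, and that of ATP synthase genes was 3 without mrn1Δ replicate 1 or 3. Their summed levels did not overlap between genotypes (1490, 2193 and 1895 against 2314, 2439 and 2504 CPM for electron transport, and 1956, 2814 and 2427 against 2826, 3033 and 2984 CPM for ATP synthase), with wild-type replicate 1 the lowest. Many of these genes are short, with a median coding length of 444 and 375 bases, and coding length moved with some of the libraries. Over the 264 tested genes of at most 300 bases the median log2 fold change was 0.08, with 16 higher and 3 lower, and the median deviation from the mean of the 6 libraries was 0.10 in mrn1Δ replicates 1 and 3, -0.07 in mrn1Δ replicate 2 and between -0.03 and -0.05 in wild-type. The part of gene length in these counts was not tested. The 7 tested mitochondrially encoded proteins gave no call (median 0.35), with 2 at an unadjusted p under 0.05 and 1 called by DESeq2, and 3 were higher without wild-type replicate 3. OLI1, an ATP synthase subunit, was at 92.4, 90.3 and 131 against 166, 143 and 137 CPM (0.51 ± 0.16, adjusted p = 0.103).

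Fewer genes of the tricarboxylic acid (TCA) and glyoxylate cycles passed the test. Of 17 TCA cycle genes 4 were higher and none lower (median 0.27). CIT1, the mitochondrial citrate synthase, was at 534, 662 and 615 against 756, 777 and 746 CPM (0.33 ± 0.08, adjusted p = 0.0266, edgeR), SDH3 of succinate dehydrogenase was at 99.7, 134 and 113 against 153, 143 and 154 CPM (0.37 ± 0.10), and LSC2 of succinyl-CoA ligase was at 221, 232 and 213 against 273, 277 and 276 CPM (0.31 ± 0.06). LSC2 kept its call throughout, whereas CIT1 and SDH3 lost theirs without wild-type replicate 3 or any 1 mrn1Δ library (up to 0.0956 and 0.117). The number higher was 11 without wild-type replicate 2, 2 without wild-type replicate 3 and 1 without any 1 mrn1Δ library. Of 10 glyoxylate cycle and gluconeogenesis genes 2 were higher, the isocitrate lyase ICL1 (90.8, 102 and 94.2 against 108, 118 and 135 CPM, 0.33 ± 0.08, lost without wild-type replicate 1 or 3 or mrn1Δ replicate 2 or 3, up to 0.0919) and the peroxisomal malate dehydrogenase MDH3 (0.28 ± 0.06, lost without mrn1Δ replicate 1 at 0.0578), and the median was 0.27. That number was 4 without wild-type replicate 2 and 1 without any other library.

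Genes of storage carbohydrates and stress defence rose in part. Of 17 trehalose and glycogen genes 4 were higher and none lower (median 0.19). ATH1, the acid trehalase, was at 212, 222 and 228 against 330, 324 and 293 CPM (0.52 ± 0.06, adjusted p = 0.00096, edgeR). GDB1, the glycogen debranching enzyme, was at 943, 838 and 834 against 1189, 1229 and 1160 CPM (0.45 ± 0.07), and NTH2, a neutral trehalase gene that shares reads, was also higher (0.28 ± 0.06, lost without mrn1Δ replicate 1 or 2, up to 0.0584). The number higher was 8 without wild-type replicate 1 and 2 without mrn1Δ replicate 1 or 2. Of 21 oxidative stress genes 4 were higher and none lower (median 0.19), among them the catalase CTA1 described above, SOD2, the mitochondrial superoxide dismutase (148, 193 and 158 against 200, 223 and 242 CPM, 0.42 ± 0.11, lost without wild-type replicate 1 or 3 or mrn1Δ replicate 2 or 3, up to 0.126), and TSA2 (0.44 ± 0.11, lost without wild-type replicate 2 or 3 or mrn1Δ replicate 1 or 3, up to 0.122). The number higher was 2 without wild-type replicate 3 or mrn1Δ replicate 1 and 1 without mrn1Δ replicate 3. A STRE was also frequent in lists without higher calls, at 47.4% of heat shock and chaperone windows and 35.3% of glycolysis windows. It was in 21.5% of all tested windows. It was in 66.7% of the oxidative stress and 52.9% of the trehalose and glycogen windows. NQM1, a transaldolase paralog outside both lists, was at 109, 113 and 92.3 against 187, 186 and 190 CPM (0.84 ± 0.07, adjusted p = 6.2e-05, edgeR), and ALD3, a stress-induced cytosolic aldehyde dehydrogenase that shares reads, at 344, 234 and 234 against 515, 498 and 518 CPM (0.91 ± 0.15). Heat shock protein and chaperone genes were not among them: of 19, none was higher and 2 were lower, SSA2 (-0.26 ± 0.07) and YDJ1 (-0.22 ± 0.06), both calls lost without any library other than wild-type replicate 2 (up to 0.188 and 0.138). In that list 2 were higher and none lower without wild-type replicate 1, 1 was higher and 4 lower without wild-type replicate 2 and by DESeq2, and none was called without any single 1 of the other 4 libraries.

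NCA3 (YJL116C, chromosome X, 193860 to 194873), a SUN-family protein linked to the mitochondrion and the cell wall, was at 25.9, 25.6 and 22.6 CPM in wild-type and 55.9, 49.3 and 49.8 CPM in mrn1Δ, a 2.09-fold difference (1.07 ± 0.08, adjusted p = 2.4e-05, edgeR). The other 3 members of the family did not follow it, with log2 fold changes of 0.01 for UTH1, -0.01 for SIM1 and -0.17 for SUN4, none of them called. INA1, a plasma membrane protein, was at 158, 130 and 135 against 308, 294 and 283 CPM (1.06 ± 0.08, adjusted p = 2.1e-05, edgeR). HXT5, the hexose transporter expressed in slow-growing cells, was at 223, 157 and 171 against 332, 339 and 293 CPM (0.81 ± 0.13, sharing reads), and PUT4, the proline permease, at 148, 221 and 177 against 302, 341 and 316 CPM (0.82 ± 0.14), its call lost without mrn1Δ replicate 2 (0.0557). Of 18 hexose transporters and sensors 3 were higher and none lower (median -0.06), against 6.79% and 7.83% of all tested genes. Besides HXT5, the higher ones were HXT9 (0.31 ± 0.08) and GAL2 (0.37 ± 0.10), which share reads as well. HXT9 lost its call without wild-type replicate 1 or 3 or mrn1Δ replicate 1 or 2 (up to 0.138), and GAL2 without any library other than wild-type replicate 2 (up to 0.119). The number higher was 1 without wild-type replicate 3 or mrn1Δ replicate 1 or 2, and without wild-type replicate 2 it was 4, with 2 lower.

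CLB2, MCM3 and RNR1 were each higher, the last pair being in no list and named for their adjusted p. CLB2, the main mitotic cyclin, was at 19.5, 20.0 and 22.1 against 35.4, 37.0 and 36.7 CPM (0.82 ± 0.07, adjusted p = 8.9e-05, edgeR), and was the only one called of 12 cyclins (median -0.10). MCM3, a subunit of the replicative helicase, was at 117, 120 and 112 against 192, 204 and 206 CPM (0.79 ± 0.05, adjusted p = 1.8e-05, edgeR). RNR1, the large subunit of ribonucleotide reductase, was at 96.1, 87.6 and 90.0 against 146, 140 and 142 CPM (0.65 ± 0.05, adjusted p = 4.5e-05, edgeR). In CLB2, MCM3 and RNR1 the highest wild-type library lay below the lowest mrn1Δ library. In bulk RNA, more cells in one stage of the cycle and more RNA per cell cannot be told apart. Of 10 histone genes, 8 of which share reads, 5 were higher and none lower (median 0.20), led by the histone H4 genes HHF2 (0.42 ± 0.07) and HHF1 (0.36 ± 0.06) and the H3 gene HHT1 (0.39 ± 0.08, lost without mrn1Δ replicate 1 at 0.0553). Without mrn1Δ replicate 1 that number was 2.

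Some groups showed few or no calls in these libraries, where 6.79% of all tested genes were higher and 7.83% lower. All 66 mitochondrial ribosomal protein genes were uncalled (median 0.06, 3 at an unadjusted p under 0.05, none called by DESeq2), the most changed being MRP35 at 0.24. None of 32 proteasome genes was called (median 0.01, none at an unadjusted p under 0.05 and none by DESeq2), with PRE4 at 0.13. Among 17 glycolysis genes none was called (median -0.08, 5 at an unadjusted p under 0.05, 1 higher and 1 lower by DESeq2, 2 higher without wild-type replicate 2), and HXK1 stood at 0.25. Among 14 iron uptake genes none was called (median -0.05, 3 at an unadjusted p under 0.05, 1 lower by DESeq2 and 2 under upper-quartile scaling), with 2 higher and 1 lower without wild-type replicate 1, 2 lower without wild-type replicate 2 and 1 without mrn1Δ replicate 1 or 2, the most changed being the enterobactin transporter ENB1 at -0.56 (285, 180 and 232 against 162, 158 and 154 CPM, adjusted p = 0.0674 in edgeR, and called by DESeq2). Of 32 mitochondrial import genes 1 was called, MAS1 of the processing peptidase (0.20 ± 0.06, lost without any library other than wild-type replicate 1, up to 0.157), of 14 mating genes 1, the a-factor exporter STE6 (0.25 ± 0.06, lost without any 1 mrn1Δ library, up to 0.0933), and of 10 daughter-cell separation genes 2, ASH1 (0.22 ± 0.06, lost without any library other than wild-type replicate 2, up to 0.145) and DSE4 (-0.34 ± 0.06). Of 24 mRNA decay and RNA-binding protein genes 3 were higher, PUF2 (0.40 ± 0.06, sharing reads), JSN1 (0.29 ± 0.06, lost without mrn1Δ replicate 1 or 2, up to 0.0729) and PAT1 (0.27 ± 0.05), and SCP160 was lower (-0.29 ± 0.06, lost without mrn1Δ replicate 1 at 0.062).

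Whether these differences were particular to the respiratory condition was tested as an interaction of genotype and condition over all 12 libraries. It was called for 188 of 5828 genes (3.23%), 65 positive and 123 negative, and for 439 by DESeq2. A block that paired the glucose and respiratory libraries of the same genotype and replicate number gave 415. Whether such libraries came from the same culture was not tested. The edgeR count with no block was 501 without wild-type fermentative replicate 2, 91 without wild-type fermentative replicate 3, and 89 and 84 without mrn1Δ fermentative replicates 1 and 2. It was 106 without wild-type respiratory replicate 1 and 96, 83 and 81 without mrn1Δ respiratory replicates 1, 2 and 3. Among the genes called in the respiratory comparison it was called for 55 of the 394 higher and 111 of the 454 lower genes. These genes were chosen on the same respiratory libraries, so shares above 3.23% follow in part from that choice. STL1 was at 10.7 ± 1.7 CPM in wild-type and 9.38 ± 0.86 CPM in mrn1Δ in glucose (SD, n = 3), levels close together, and the difference of the 2 log2 fold changes was 2.19 (adjusted p = 0.00123, edgeR). JEN1 (1.31, adjusted p = 0.00167), CYB2 (1.04, adjusted p = 0.00139), POX1 (0.90), FOX2 (0.83) and POT1 (0.88) had group means of 6.71 to 19.1 CPM in glucose in both genotypes and were likewise higher in mrn1Δ after the shift. LEU1 and OAC1 were already low in mrn1Δ in glucose (160 ± 3.1 in mrn1Δ against 785 ± 57 CPM in wild-type, and 17.3 ± 0.11 against 67.9 ± 2.7 CPM), and the fall was larger after the shift, by -0.66 and -0.95. MAE1 (175 ± 6.2 CPM in mrn1Δ against 218 ± 26 CPM in wild-type in glucose, -1.06, adjusted p = 0.00053) and MET6 (-0.83, adjusted p = 0.00321) differed mainly after the shift. Of the 92 ribosome assembly genes 39 had a called interaction. NCA3 went the other way: its rise in mrn1Δ was larger in glucose, with an interaction of -0.75. DIC1 (0.21, adjusted p = 0.66), ERG5 (0.07, adjusted p = 0.771), CLB2 (0.01, adjusted p = 0.974), INA1 (0.09, adjusted p = 0.802) and GSC2 (-0.18, adjusted p = 0.425) gave no called interaction.

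**Figure D5:**
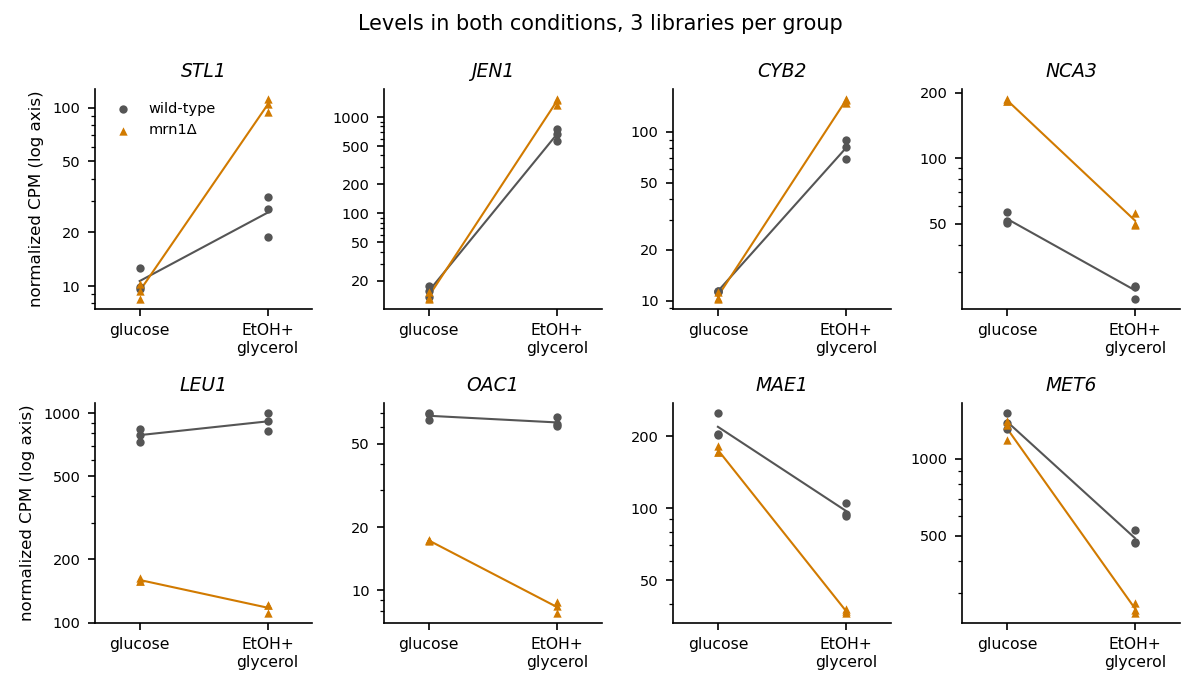
Normalized CPM (log axis) of 8 genes in the fermentative (glucose) and respiratory (ethanol and glycerol) libraries, 3 per group, with lines joining the group means of wild-type (circles) and mrn1Δ (triangles). STL1, JEN1 and CYB2 lie close together in glucose and separate after the shift, NCA3, LEU1 and OAC1 are apart in both, and MAE1 and MET6 separate further after the shift.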

How the data were processed

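The 12 libraries were made from total RNA extracted with phenol and chloroform, depleted of rRNA with QIAseq FastSelect, prepared with NEBNext Ultra II and sequenced as single reads. Per the submitters' processing notes the authors used kallisto 0.44.0 and genome build R64. The deposited tables hold, for each library, the estimated counts and the TPM that the authors obtained per coding sequence; TPM was not used. Estimated counts were rounded to whole numbers, and the 621 of 5917 sequences whose count was over 0.001 from a whole number in any library are said here to share reads, since kallisto splits only reads that fit several sequences. The strand setting was not given in the sources used here, so overlapping antisense genes cannot be told apart. Of the 5917 systematic names 5911 matched the R64 annotation of RefSeq, and 5906 (99.9%) of these had the same coding length.

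The 3 mrn1Δ and 3 wild-type respiratory libraries were compared with edgeR 4.0.16 (R 4.3.3) by TMM scaling, filterByExpr, robust quasi-likelihood fits and Benjamini-Hochberg adjustment over all 5800 tested genes, two-sided, at 0.05. Errors of log2 fold changes are standard errors from the quasi-likelihood F. The interaction was fitted over all 12 libraries. Genes were named by a rule: the 12 largest and 12 lowest log2 fold changes among called, non-overlapping genes at 10 CPM or more, up to 3 called members per direction of each of 37 gene lists, the 5 smallest adjusted p per direction, MRN1 and its neighbours, the genes the study names and markers. A further gene under this rule is not reported here. The lists, from textbook knowledge, and all choices of members were made with earlier results of these data known. Alternatives were DESeq2 1.42.0, upper-quartile and RLE scaling, no filter, a minimum of 10 counts per library, a single fit of the 12 libraries, a replicate block, a fold limit of 0.6 (log2) and leaving out each library. The procedure was also run on simulated counts with 200 changed genes and the same dispersion for every gene and both genotypes. Such counts lack the greater scatter of the wild-type libraries. Python 3.11.15, numpy 2.4.6, pandas 2.3.3 and matplotlib 3.10.9 were used. Levels are relative to the total of each library. A count of 3 corresponds to 0.119 to 0.158 CPM in the respiratory libraries, a limit that covers counting error only.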

Additional observations from a re-analysis of the deposited data

Results flagged for a closer look

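Of 124 named genes tested for it, 32 gave a genotype difference after the shift that differed from the one in glucose by the interaction test of edgeR over all 12 libraries. Over all tested genes the interaction was called for 188 of 5828 (3.23%). The named genes were largely chosen for their respiratory difference, and the same respiratory libraries enter this test. A larger share among them therefore follows in part from the choice and is not a result about them. Values are the respiratory minus the fermentative log2 fold change. The 12 positive ones were STL1 (2.19), ALD3 (1.32), JEN1 (1.31), UIP4 (1.16), CYB2 (1.04), POX1 (0.90), NQM1 (0.90), POT1 (0.88), FOX2 (0.83), PIC2 (0.68), ATH1 (0.42) and NTH2 (0.35). The 20 negative ones were MAE1 (-1.06), OAC1 (-0.95), ALD5 (-0.88), KRI1 (-0.84), MET6 (-0.83), NCA3 (-0.75), PHO84 (-0.73), FSF1 (-0.72), EBP2 (-0.69), LEU1 (-0.66), RLP24 (-0.66), BAT1 (-0.65), RPA49 (-0.63), UTR2 (-0.62), SAM2 (-0.52), STD1 (-0.51), YEF3 (-0.51), ERG25 (-0.50), RPA43 (-0.48) and ERG3 (-0.46). NCA3 was higher in mrn1Δ in both conditions and more so in glucose, whereas the other negative genes were lower after the shift.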

How the results depend on the processing

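The choice of tool, scaling and filter left most of the comparison in place. The higher genes numbered 457 by DESeq2, 389 with RLE scaling, 390 with no filter and 400 with a minimum of 10 counts, and the lower ones 516, 447, 453 and 468. DESeq2 shared 380 of the 394 higher and 440 of the 454 lower genes. The higher count was 260 with upper-quartile scaling (lower 577) and 258 when all 12 libraries entered the fit (lower 364). A log2 fold change of at least 0.6 in size as a further condition left 39 higher and 59 lower genes. Leaving out single libraries gave 152 to 445 higher and 165 to 473 lower genes, lowest without an mrn1Δ library. The interaction count of 188 was 439 by DESeq2, and ran from 81 (without mrn1Δ respiratory replicate 3) to 501 (without wild-type fermentative replicate 2). Fewer samples enter these fits, and the cause was not tested further.

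Within-group deviations of same-numbered mrn1Δ and wild-type libraries correlated at r = -0.05, 0.20 and -0.14 for numbers 1, 2 and 3. Differently numbered libraries gave -0.20 to 0.26. So few values cannot decide whether cultures with the same number were grown together, and the main fit used no block. A block for the replicate number gave 470 higher and 500 lower genes, and 415 genes gave an interaction with genotype and replicate number as the block.

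The proteasome median of 0.01 became -0.028 under upper-quartile scaling. Leaving out single libraries moved the medians of the TCA cycle (0.15 to 0.31), lactate, acetate, ethanol and glycerol use (0.32 to 0.60), mitochondrial carriers (-0.031 to 0.092), the SUN family (-0.0875 to 0.177), electron transport (0.31 to 0.57), mitochondrially encoded proteins (0.22 to 0.61) and the proteasome (-0.0095 to 0.026). The marker MFA1, at about 1 CPM and not called, changed sign (-0.26 to 0.18). For the named genes, 810 of 860 values from the other alternatives kept their direction and their side of the threshold, 44 calls were lost and 6 gained, and of 738 values with a library left out 573 were kept, 159 calls were lost, 4 gained and 2 changed sign. Upper-quartile scaling ended the calls of SDH3, MAS1, HXT9, CAT8, SIP1, TSA2, SOD2, CWP2, ASH1, SUP35, SER3 and SHM2, DESeq2 those of MAS1, SIP1 and SER3, and the block those of CAT8, SIP1, SSA2 and SER3. The fit of all 12 libraries ended those of ICL1, AAC3, MAS1, GAL2, HXT9, CAT8, SIP1, SSA2, YDJ1, TSA2, ECM33, CWP2, CIS3, ASH1, SUP35, TIF35, SER3, HOM2, SHM2, ERG2, HHF2, PHO11, STE6, JSN1 and SCP160. OLI1 (DESeq2 and all 12 libraries), HXK1 (DESeq2) and ENB1 (DESeq2, upper-quartile scaling and the block) gained calls. The call of YBR219C, near 1 CPM, was lost in 5 of the 6 fits. Counts of called list members moved by over 1.5 times in several lists, among them the following. By DESeq2 the higher TCA cycle, trehalose, oxidative stress and lactate lists each had 7 in place of 4, and the lower ribosomal proteins 42 in place of 26. The fit of all 12 libraries gave 4 lower translation factors, 2 ergosterol and 5 purine genes and 3 higher histones in place of 12, 6, 8 and 5. Upper-quartile scaling gave 2 higher TCA cycle, 1 higher oxidative stress, 4 lower glucan and 8 lower other amino acid genes in place of 4, 4, 1 and 4. The block gave 16 higher electron transport and 9 higher TCA cycle genes in place of 10 and 4.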

Other observations

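Many changed genes were in none of the lists, 319 of the higher and 295 of the lower ones. The following were chosen after their values were seen. Among the higher genes HBT1, which is involved in polarized cell shape, was at 221, 186 and 180 CPM in wild-type and 356, 314 and 340 CPM in mrn1Δ (log2 fold change 0.79 ± 0.08, adjusted p = 0.00031, edgeR quasi-likelihood test). GDH2, the NAD-dependent glutamate dehydrogenase that degrades glutamate, was at 340, 454 and 406 against 662, 670 and 683 CPM (0.75 ± 0.10), the direction opposite to that of GDH1. PRY1, a secreted sterol-binding protein, was at 72.7, 76.3 and 66.0 against 114, 128 and 120 CPM (0.75 ± 0.07). RGI2 (0.63 ± 0.07), the general amino acid permease GAP1 (0.50 ± 0.10), the peroxisomal import factor PEX18 (0.58 ± 0.09) and the fatty acyl-CoA synthetase FAA3 (0.69 ± 0.11, sharing reads) were also higher.

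Among the lower genes the protein kinase RCK1 was at 54.3, 38.5 and 38.3 against 23.3, 22.9 and 23.4 CPM (-0.91 ± 0.13, adjusted p = 0.0038, edgeR). MNN1, a Golgi mannosyltransferase, was at 34.9, 34.3 and 34.0 against 21.5, 19.3 and 20.3 CPM (-0.76 ± 0.07), and SUT1, a factor that acts in sterol uptake, at 58.9, 69.0 and 55.5 against 37.8, 40.5 and 39.2 CPM (-0.64 ± 0.08). TPC1, the mitochondrial thiamine pyrophosphate carrier (-0.70 ± 0.12), BIO2, the biotin synthase (-0.56 ± 0.07), YHB1, the flavohemoglobin (-0.51 ± 0.06), and HEM13, an oxygen-responsive heme synthesis enzyme (-0.50 ± 0.08), were lower as well. All genes in this and the preceding paragraph kept their calls in the 6 fits that left out a library. TAR1, a small gene within the ribosomal DNA, was at 789, 372 and 315 CPM in wild-type and 315, 183 and 187 CPM in mrn1Δ, and was not called (-1.11 ± 0.48, adjusted p = 0.225, edgeR).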
